A study of Mus musculus with 6 samples.

Results

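The wild-type expression profile of mouse multipotent progenitors is described here from 3 of the 6 arrays in the series, those titled as wild type, replicates 1 to 3. Multipotent progenitors are bone marrow cells that can still give rise to every blood lineage but, unlike long-term haematopoietic stem cells, sustain blood formation only for a limited time. Each array held RNA of 1 pool of sorted cells, close to 100000 cells from 10 to 20 female C57BL/6 mice aged 8 to 12 weeks. The labels give these mice an intact latexin gene and protein, and no treatment is described. The sort took bone marrow cells that were Lin-, Sca1+, c-Kit+, CD34+ and "Flt2+" as the series text spells it, whereas the sentence on cell number in that text names long-term stem cells. Within the pooled cells, individual mice cannot be followed, and the 3 arrays measure the spread between pools only. The series also holds latexin-deficient mice, whose arrays are not used here. No groups are compared, so levels and spreads are given as descriptions without p-values.

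The measurement is the log2 signal of a whole-transcript mouse array, on which 1 unit is a 2-fold change in signal. Of 35557 features, 21789 carried exactly 1 gene symbol, and the feature with the highest wild-type mean stood for each gene, which gave 19938 genes. Signal depends on probe sequence as well as on RNA amount, so the order of genes by signal is not an order of transcript numbers. Each gene's signal is therefore also placed by its percentile among the 19938 genes. Mean values are given with the SD over pools (n = 3), and the small number of arrays limits their precision.

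Multipotent progenitors keep transcription factors shared with stem cells while starting to transcribe genes of several lineages at low level, a state known as multilineage priming. Flt3, a receptor tyrosine kinase, marks the members of this compartment that lean towards lymphoid and myeloid output. CD34, a sialomucin, and c-Kit, the receptor for stem cell factor, are used with it to separate them from long-term stem cells. In a bulk sample, fewer cells of a type and less RNA per cell cannot be told apart.

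The 3 pools were close to each other over all genes, and pool 2 stood farthest from their mean. The median gene had an SD of 0.102 between pools, with a 5th percentile of 0.0273 and a 95th percentile of 0.245. Across the 19938 genes, which share arrays and are not independent, Pearson's r was 0.994 between pools 1 and 2, 0.996 between pools 1 and 3, and 0.994 between pools 2 and 3. Pool 2 contributed 43.3% of the between-pool sum of squares, pool 1 28.6% and pool 3 28.1%. Pool 2 was the highest of the 3 at 48.3% of all genes and the lowest at 25.4%, pool 1 the highest at 26.9% and the lowest at 37%, and pool 3 the highest at 24.8% and the lowest at 37.6%. Counts of genes that were highest or lowest in a pool are read against these shares. The median deviation of pool 2 from the 3-pool mean was 0.034 over all genes, and by level it ran from 0.017 in the dimmest decile of genes to 0.067 in the fifth decile and -0.016 in the brightest decile.

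A background was read from 1228 genes of odorant, vomeronasal and taste receptors, which are not expected in blood cells. Their wild-type means had a median of 5.92, and their 95th percentile, 7.28, served as the background line. Of all genes, 11598 of 19938 (58.2%) had a wild-type mean above it. Counts of list members above the line are read against this share. The line is lenient, because 8 of 25 genes of other tissues, such as the liver apolipoprotein Apoa1 (7.84 ± 0.089) and the pituitary hormone subunit Lhb (7.86 ± 0.11), also lay above it, up to 7.86. A mean between 7.28 and 7.86 is therefore not read as expression. Of the 1228 receptor genes, 62 lay above the line themselves. The 99th percentile of the receptor means was 7.91 and the highest 9.74, so a mean above 7.86 is not by itself evidence of expression. Of the 374 measured genes in 20 lists of blood and marrow genes, 299 (79.9%) exceeded the line, and their median signal was 9.18 against 7.72 for all genes.

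**Figure D1:**
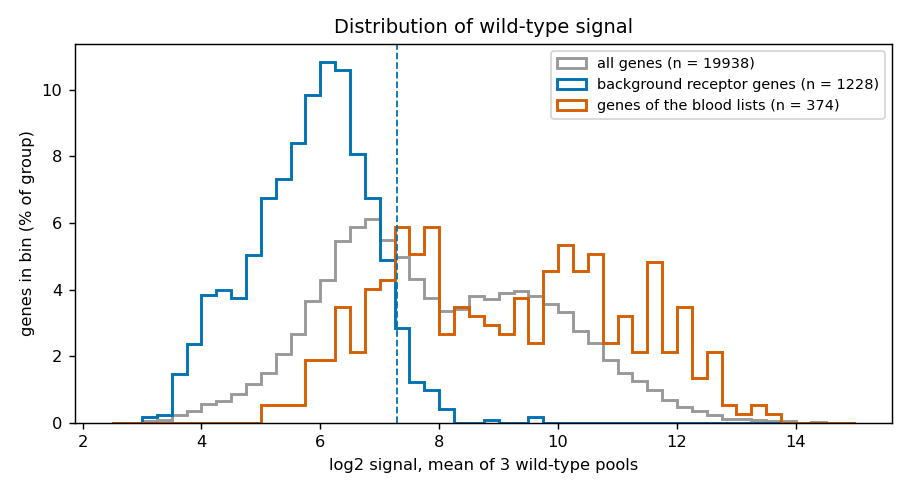
Share of genes (percent of each group, vertical axis) in bins of wild-type mean log2 signal (horizontal axis) for all 19938 genes, the 1228 receptor genes and the 374 blood-list genes, with the dashed background line at 7.28. The receptor genes lie mostly left of the line around their median of 5.92, and the blood-list genes extend to the right with a median of 9.18.

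The 3 markers that were measured and used in the sort were among the brightest genes. Cd34 read 13.42, 13.36 and 13.46 in pools 1 to 3 (13.41 ± 0.050), which placed it at percentile 99.9. Flt3 read 12.69, 12.68 and 12.75 (12.71 ± 0.040, percentile 99.5). Kit read 12.15, 12.19 and 12.05 (12.13 ± 0.074, percentile 98.7). All 3 markers were high in every pool, and at each of them the difference between pools was small beside the distance from the background line. Ly6a, which encodes Sca1, lay on no feature with a single symbol and was not analysed here. Lxn itself, encoding the carboxypeptidase inhibitor latexin, read 8.56, 8.70 and 8.58 (8.61 ± 0.077, percentile 62.7), above the line in each pool. Xist, the RNA that coats the inactive X chromosome of female cells, read 13.20, 13.13 and 13.23. The Y-linked genes Kdm5d (5.02, 5.38 and 5.09), Uty (4.53, 5.15 and 4.79) and Eif2s3y (3.88, 3.97 and 3.68) lay below the line in every pool, which goes with the female label.

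Over all genes, the highest signals belonged mainly to translation and the cytoskeleton. Passing over 2 small or predicted genes, the 12 brightest were Baiap2l1, Eef1a1, Actb, Serinc3, Rps6, Rpl10, Tubb5, H4c4, Rplp0, Txn1, Eef2 and Rplp1, from 14.38 down to 13.76. Eef1a1, the elongation factor that brings aminoacyl-tRNA to the ribosome, read 14.31, 14.35 and 14.34, and Actb, cytoplasmic beta-actin, read 14.19, 14.16 and 14.17. Baiap2l1, an adaptor of actin regulation, was measured by 3 features that disagreed: their means were 14.38, 12.17 and 5.73, so its place at the top rests on 1 feature.

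Among blood genes, the 15 brightest were Srgn, Cd34, Mpo, Cdk4, Pcna, Zfp36l2, Cd47, Dusp1, Flt3, Cdk6, Lmo2, Jun, Nr4a1, Myb and Cd93. They mixed a granule proteoglycan and peroxidase with surface receptors, progenitor transcription factors, cell cycle genes and immediate early genes. Srgn, encoding serglycin, the proteoglycan that packs proteases into granules of many blood cells, read 13.67, 13.51 and 13.66 (13.62 ± 0.089). Mpo, encoding myeloperoxidase of azurophilic granules, read 13.41, 13.42 and 13.11 (13.32 ± 0.18). Cdk4, a G1 cyclin-dependent kinase, read 13.19, 13.07 and 13.25, and Pcna, the sliding clamp of DNA replication, read 12.93, 12.80 and 13.05. Zfp36l2, an RNA-binding protein that promotes mRNA decay, read 12.87, 12.90 and 12.70. Cd47, the surface signal that restrains phagocytosis, read 12.80, 12.63 and 12.78. Among the 6 genes given so far the widest range was at Mpo, where pool 3 was the lowest. Dusp1, a phosphatase of MAP kinases, had the widest spread of the 15: it read 12.66, 13.10 and 12.39, highest in pool 2.

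The 15 dimmest blood genes were Gzma, Clec1b, Mcpt4, Lepr, Slamf1, Klrk1, Il5ra, Cr2, Cd3g, Eomes, Adipoq, Cma1, Cd3d, Clec1a and Ms4a1. All had means from 5.19 to 6.09, around the median of the background receptors. They include killer-cell genes (Gzma, Klrk1, Eomes), T cell receptor chains of the CD3 complex (Cd3g, Cd3d), B cell antigens (Cr2, Ms4a1), proteases of mature mast cells (Mcpt4, Cma1) and stromal genes (Lepr, Adipoq). Gzma, the cytotoxic granule protease granzyme A, read 4.86, 5.21 and 5.51. Slamf1, encoding CD150, a receptor used to isolate long-term stem cells, read 5.46, 5.64 and 5.61 and sat at percentile 8.4. Clec1b, encoding the platelet podoplanin receptor, read 5.13, 5.33 and 5.19.

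Genes of the general leukocyte and progenitor surface were all above the line, 21 of 21 against the 58.2% of all genes, with a median of 10.58. Besides Cd47, the brightest were Cd93 (12.37 ± 0.061), a lectin-like receptor of early progenitors, Cd53 (12.21 ± 0.060), a leukocyte tetraspanin, and Cd27 (12.20 ± 0.032), a receptor of the TNF family. Ptprc, encoding the pan-leukocyte phosphatase CD45, read 10.75, 10.73 and 10.83. The dimmest, Cd9, a tetraspanin, read 8.27, 8.98 and 8.79, and with an SD of 0.37 it was also the most variable of the list. Cd48, a receptor that rises as cells leave the stem cell state, read 10.70, 10.41 and 10.64.

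Transcription factors shared by blood progenitors formed one of the brightest groups. All 26 members of the list lay above the line, against 58.2% of all genes. Their median was 11.12 and their median SD 0.081. The brightest of them, Zfp36l2 (12.83 ± 0.11), encodes an RNA-binding protein and not a transcription factor. Lmo2, a bridging protein of progenitor transcription complexes, read 12.58, 12.76 and 12.63. Myb, needed for proliferating progenitors, read 12.58, 12.53 and 12.45, and Myc, a growth regulator, read 12.30, 12.21 and 12.16. Runx1, the core-binding factor that establishes blood cell identity, read 11.51, 11.48 and 11.20. Its partner Cbfb was nearly identical in the 3 pools, at 10.97, 10.95 and 10.97. The dimmest members were Tal1 (9.24 ± 0.065), Hoxa10 (7.96 ± 0.023) and Hoxb4 (7.67 ± 0.18), regulators of early haematopoiesis, of which Hoxb4 lay in the range reached by genes of other tissues.

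Lineage regulators were less evenly represented. Of 14 myeloid factors, 12 exceeded the line (85.7%, against 58.2% of all genes). They were led by Spi1, which encodes PU.1 and read 11.35, 11.31 and 11.33. Irf8, a driver of monocyte and dendritic fates, read 11.26, 10.97 and 10.88. Cebpa, the factor needed for granulocyte-monocyte progenitors, read 9.24, 9.19 and 9.24, whereas Cebpd (6.21 ± 0.15) and Batf3 (7.09 ± 0.18) stayed below the line. All 10 erythroid and megakaryocyte factors exceeded it, against 58.2% of all genes, with Ldb1 at 12.12 ± 0.071 and Gfi1b at 10.70 ± 0.10. The erythroid master regulators Gata1 and Klf1 were the dimmest of the 10. Gata1 read 7.67, 8.08 and 7.67 and Klf1 read 7.61, 8.07 and 7.63, both highest in pool 2 and above 7.86 there only. Of 18 lymphoid factors, 12 (66.7%, against 58.2% of all genes) exceeded the line. Satb1, a chromatin organiser of lymphoid priming, read 11.91, 11.91 and 11.87, and Notch1, the receptor that starts the T lineage, read 11.63, 11.78 and 11.62. Gata3, a T lineage factor, read 8.45, 8.81 and 8.46. Bcl11b (7.57 ± 0.13), a T commitment factor, and Ebf1 (7.35 ± 0.19), a B lineage factor, lay between 7.28 and 7.86, Pax5, the B commitment factor, lay below the line at 7.04 ± 0.16, and Eomes, a T-box factor of killer cells, lay well below it at 5.96 ± 0.13.

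**Figure D2:**
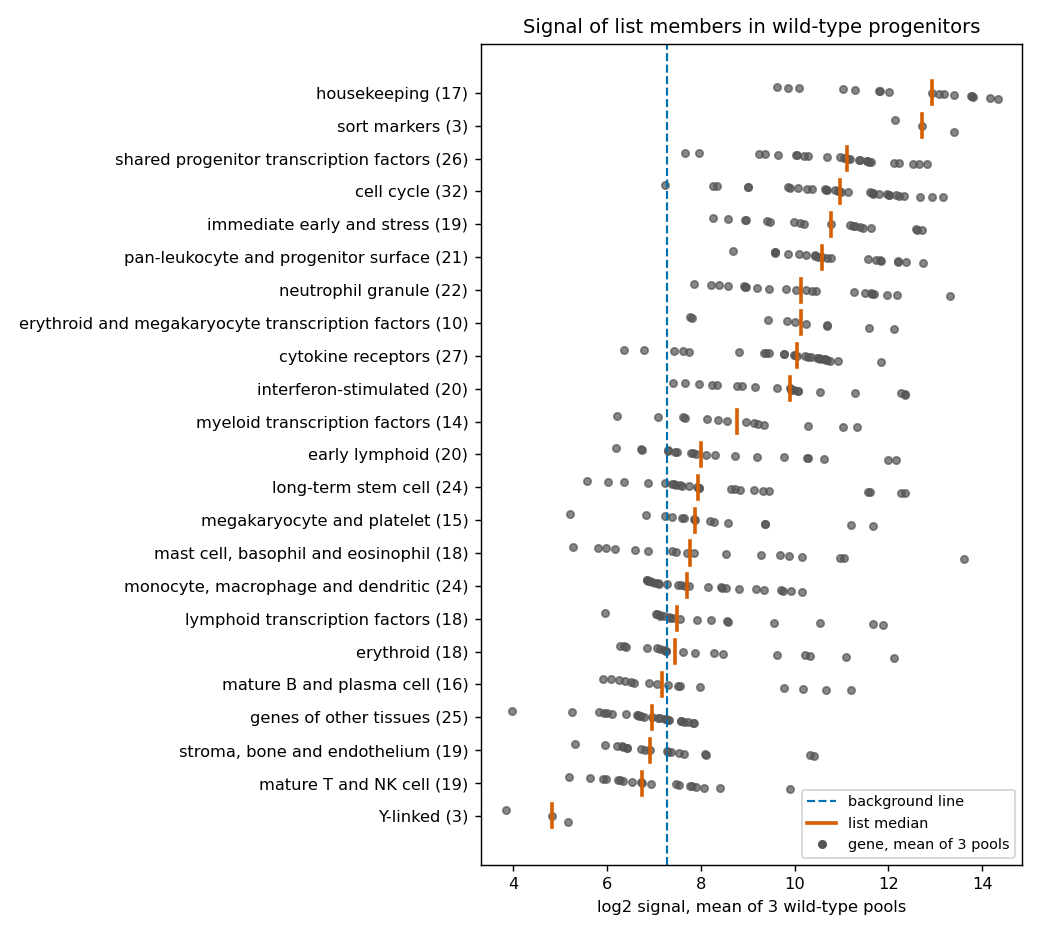
Wild-type mean log2 signal (horizontal axis) of each measured gene, 1 point per gene, in each list (rows, with the number of genes), with the list median as an orange bar and the background line at 7.28 dashed. Shared progenitor factors (median 11.12) and cell cycle genes (10.97) lie far right of the line, and mature T and NK cell genes (6.75) straddle it on the left.

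Genes for neutrophil granules had the highest median of the lists for differentiated lineages, 10.14. All 22 exceeded the line, against 58.2% of all genes. Ctsg and Elane, serine proteases of the early, azurophilic granules, had means of 12.19 ± 0.18 and 11.98 ± 0.52. Prtn3, another protease of that type, read 11.45, 11.72 and 11.35. Lyz2, encoding lysozyme, read 11.47, 11.74 and 11.89. The genes of later granules were also present: Ngp (11.64 ± 0.21), Lcn2 (11.26 ± 0.30) and Ltf (10.25 ± 0.30), of which Ltf encodes the iron-binding lactoferrin. The dimmest were Chil3 (7.87 ± 0.38), Fcnb (8.22 ± 0.59) and Mmp8 (8.40 ± 0.36), a chitinase-like protein, a ficolin and a neutrophil collagenase.

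The granule genes also differed most between pools among the 20 lists, with a median SD of 0.335 against 0.102 for all genes. Pool 2 was the highest at 20 of 22 (90.9%, against 48.3% of all genes), and its median member was 0.52 above the mean of the other pools, a 1.43-fold difference. Ctsg and Lyz2 were the exceptions. Elane read 11.93, 12.52 and 11.48, so pool 2 was highest and pool 3 lowest. Fcnb read 7.79, 8.90 and 7.97, and S100a9, a subunit of the calcium-binding heterodimer calprotectin, read 9.59, 10.43 and 10.08. Pools 1 and 3 differed from each other by gene. Pool 3 was lowest at 8 members (Cst7, Ctsg, Elane, Lcn2, Mpo, Ms4a3, Nkg7 and Prtn3), which include the azurophilic proteases. Pool 1 was lowest at the other 14, which include Camp, Ltf, Mmp8, Mmp9, S100a8 and S100a9. Over all genes, pool 3 was the lowest at 37.6% and pool 1 at 37%. Ms4a3, a membrane protein of granulocyte-monocyte progenitors, read 8.89, 9.48 and 8.47, and Ly6g, the surface antigen of mature neutrophils, read 8.52, 9.42 and 8.82.

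The promoters of the 4 brightest protease and peroxidase genes are shown because all 4 are among the 8 granule genes that were lowest in pool 3. Each line gives the 250 bases before the RefSeq start site, 5′ to 3′ on the gene's strand, in GRCm38.p6. Capitals mark GAGGAAGT, a PU.1-type motif, searched for on both strands. Elane lies at chr10:79886062-79886311 (+), Prtn3 at chr10:79879417-79879666 (+), Mpo at chr11:87793534-87793783 (+) and Ctsg at chr14:56102575-56102824 (-).
Elane: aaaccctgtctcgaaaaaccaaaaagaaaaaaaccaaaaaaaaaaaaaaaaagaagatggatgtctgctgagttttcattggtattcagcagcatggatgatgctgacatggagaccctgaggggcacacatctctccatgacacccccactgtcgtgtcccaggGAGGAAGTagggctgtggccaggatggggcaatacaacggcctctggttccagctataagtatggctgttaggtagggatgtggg
Prtn3: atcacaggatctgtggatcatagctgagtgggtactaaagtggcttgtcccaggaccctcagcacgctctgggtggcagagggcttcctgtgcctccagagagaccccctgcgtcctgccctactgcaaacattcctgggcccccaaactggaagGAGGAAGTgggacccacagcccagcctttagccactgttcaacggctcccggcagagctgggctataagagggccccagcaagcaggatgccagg
Mpo: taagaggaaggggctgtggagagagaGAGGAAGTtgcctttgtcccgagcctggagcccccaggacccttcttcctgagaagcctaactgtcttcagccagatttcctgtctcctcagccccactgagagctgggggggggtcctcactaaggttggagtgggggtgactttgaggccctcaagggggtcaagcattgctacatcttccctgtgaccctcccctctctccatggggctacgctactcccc
Ctsg: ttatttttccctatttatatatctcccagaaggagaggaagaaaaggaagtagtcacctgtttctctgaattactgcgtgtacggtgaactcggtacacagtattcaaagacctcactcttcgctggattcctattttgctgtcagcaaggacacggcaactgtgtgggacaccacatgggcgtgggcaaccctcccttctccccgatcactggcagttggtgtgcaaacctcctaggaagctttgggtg
The motif begins 85 bases upstream of the start in Elane, 95 in Prtn3 and 224 in Mpo, and these exact letters are not in the Ctsg window. Of 27025 promoter windows, 660 (2.44%) hold it, against 6 of the 21 windows found for the granule list (28.6%). These 6 are Elane, Mpo and Prtn3, lowest in pool 3, and Ly6g, Mmp8 and S100a8, lowest in pool 1. The C/EBP-type motif TTGCNNAA was in 38.1% of the list's windows and 9.55% of all windows. The RUNX-type motif TGTGGT was in 28.6% and 14.2%, the GATA-type motif AGATAA in 19.0% and 10.3%, and the TATA box TATAAA in 19.0% and 12.97%. Matches are descriptions of letters and not of binding.

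Genes of monocytes, macrophages and dendritic cells lay near the general level, with 15 of 24 above the line (62.5%, against 58.2% of all genes) and a median of 7.71 against 7.72. The brightest were H2-Ab1, a chain of MHC class II, at 10.16 ± 0.27, Bst2, encoding tetherin, at 9.93 ± 0.11, and Itgam, encoding CD11b, at 9.75 ± 0.047. Csf1r, the receptor for macrophage colony-stimulating factor, read 9.65, 9.22 and 9.21, and Ccr2, the chemokine receptor of inflammatory monocytes, read 8.84, 8.27 and 8.22. Both were highest in pool 1, unlike the granule genes. Genes known from macrophages lay on both sides of the line: Cd68 (9.71 ± 0.20), Vcam1 (8.54 ± 0.29) and C1qb (8.15 ± 0.21) lay above it, and the dimmest members, Timd4 (6.85 ± 0.16), Mertk (6.86 ± 0.30), Fcgr1 (6.87 ± 0.085) and Marco (6.91 ± 0.044), lay under it.

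Of 18 basophil, mast cell and eosinophil genes, 12 (66.7%, against 58.2% of all genes) exceeded the line. Besides Srgn, the brightest were the basophil proteases Prss34, which read 11.11, 11.06 and 10.98, and Mcpt8, which read 11.02, 11.06 and 10.84. Mast cell proteases lay below the line: Tpsab1, a tryptase, read 6.25, 6.26 and 6.01, Cma1, a chymase, read 6.07, 6.00 and 5.86, and Mcpt4 read 5.28, 5.37 and 5.17. Pool 3 was lowest at 12 of the 18, against 37.6% of all genes. Cpa3, a mast cell carboxypeptidase also transcribed in early progenitors, read 10.10, 9.98 and 9.58. Prg2, encoding eosinophil major basic protein, read 9.33, 10.06 and 9.64.

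Of 18 erythroid genes, 9 (50%, against 58.2% of all genes) exceeded the line, with a median of 7.45. Car2, a carbonic anhydrase, read 11.84, 12.24 and 12.31, and Car1, its erythroid relative, read 10.85, 11.76 and 10.69. Urod, an enzyme of haem synthesis, read 10.07, 10.46 and 10.44, and Slc25a37, the mitochondrial iron importer, had a mean of 10.23 ± 0.13. The dimmest members were Rhag (6.29 ± 0.24), Trim10 (6.37 ± 0.13) and Epb42 (6.40 ± 0.14), with Alas2, the erythroid enzyme that starts haem synthesis, at 6.86 ± 0.065. Globin genes lay on no single-symbol feature and were not analysed here. Pool 2 was the highest at 16 of the 18 (88.9%, against 48.3% of all genes), and its median member was 0.40 above the mean of the other pools, a 1.32-fold difference. At Car1 pool 2 lay apart from the other pools, and Aqp1, a water channel of red cells, read 8.29, 9.07 and 8.09.

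Megakaryocyte and platelet genes exceeded the line at 12 of 15 (80%, against 58.2% of all genes). Plek, encoding pleckstrin of platelets and leukocytes, was even across pools at 11.69, 11.66 and 11.65. Thbs1, the matricellular protein thrombospondin 1, was lowest in pool 2 at 11.47, 10.70 and 11.41. By contrast, pool 2 was the highest at 13 of the 15 (86.7%, against 48.3% of all genes). F2r, the thrombin receptor, had a mean of 9.37 ± 0.15, and Gp9, a subunit of the von Willebrand factor receptor, had a mean of 9.37 ± 0.30. The dimmest were Ppbp (7.23 ± 0.19), a platelet chemokine, Rab27b (6.84 ± 0.069), a granule trafficking protein, and Clec1b.

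Early lymphoid genes exceeded the line at 17 of 20 (85%, against 58.2% of all genes), with a median of 8.00. Dntt, the template-independent polymerase that adds bases at antigen receptor joints, was the brightest at 12.13, 12.00 and 12.34. Lsp1, a leukocyte actin-binding protein, had a mean of 11.99 ± 0.056. Cd79b, a signalling chain of the B cell receptor, had a mean of 10.62 ± 0.067, whereas its partner Cd79a read 6.45, 7.31 and 6.44, above the line in pool 2 only. Il7r, the interleukin 7 receptor needed for lymphoid progenitors, read 10.06, 9.63 and 9.63, highest in pool 1. The recombinase genes lay close to the line: Rag1 read 7.52, 7.48 and 7.34 and Rag2 read 7.57, 6.84 and 7.52. Vpreb1, a surrogate light chain, had a mean of 6.75 ± 0.043 and Cd2, a T cell adhesion molecule, one of 6.19 ± 0.11.

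Genes of mature T and NK cells had the lowest median of the blood cell lists, 6.75. Of these, 8 of 19 (42.1%, against 58.2% of all genes) were above the line. The 4 that reached beyond 7.86 were Lat (9.91 ± 0.24), an adaptor also used outside T cells, Cd4 (8.42 ± 0.17), Cd28 (8.07 ± 0.20) and Icos (7.89 ± 0.037). Of mature B and plasma cell genes, 8 of 16 (50%, against 58.2% of all genes) exceeded the line. The brightest were Xbp1 (11.21 ± 0.11), a factor of the unfolded protein response, Cd72 (10.67 ± 0.13), a B cell lectin, and Tnfrsf13c (10.18 ± 0.19), the BAFF receptor. Other B cell antigens, among them Ms4a1 (6.09 ± 0.18), Cr2 (5.91 ± 0.12) and Fcer2a (6.26 ± 0.10), lay below the line.

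Genes used to mark long-term stem cells were mixed, with 19 of 24 above the line (79.2%, against 58.2% of all genes) and a median of 7.95. Hlf, a stem cell regulator, read 11.52, 11.71 and 11.58, and Meis1, a cofactor of HOX proteins, read 11.56, 11.56 and 11.61. Ifitm3 (12.36 ± 0.17) and Ifitm1 (12.26 ± 0.059), membrane proteins that restrict viruses, were the brightest. Procr, encoding the stem cell antigen EPCR, read 8.63, 8.97 and 8.91, and Mecom, encoding EVI1, had a mean of 9.14 ± 0.12. The 5 members below the line were Sult1a1 (7.24 ± 0.14), Hoxb5 (6.88 ± 0.050), Neo1 (6.37 ± 0.23), Clec1a (6.03 ± 0.032) and Slamf1. Cd34 and Flt3, of which long-term stem cells are known to hold little, were sort markers and are not used here to name the cells. Among all genes, the members of this list ran from percentile 8.4 at Slamf1 to 99.1 at Ifitm3. Hlf sat at percentile 97.3, Meis1 at 97.2, Mecom at 70.6 and Procr at 66.1. The highest value was in pool 2 at 17 of the 24 (70.8%, against 48.3% of all genes).

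Of the receptors for cytokines, 25 of 27 lay above the line (92.6%, against 58.2% of all genes), with a median of 10.05. Flt3 and Kit were not counted in this list, and its brightest members were the receptors for interferons, Ifnar2 (11.84 ± 0.10) and Ifngr1 (10.92 ± 0.027), followed by Csf3r (10.75 ± 0.12), the receptor for granulocyte colony-stimulating factor, and Cxcr4 (10.69 ± 0.038), which retains progenitors in marrow. Ifnar1 was the least variable blood gene, at 9.997, 9.995 and 9.997. Epor, the erythropoietin receptor, read 7.46, 7.89 and 7.53, and Osmr (6.36 ± 0.022) and Lifr (6.79 ± 0.032), receptors of the interleukin 6 family, lay below the line.

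Cell cycle genes exceeded the line at 31 of 32 (96.9%, against 58.2% of all genes), with a median of 10.97. Mki67, a marker of cycling cells, read 12.16, 11.90 and 12.00, and Mcm7, a subunit of the replicative helicase, read 12.37, 12.35 and 12.31. Cdk6, a G1 kinase, had a mean of 12.67 ± 0.14. Cdkn2a, the locus of the inhibitors INK4A and ARF, was the only member below the line, at 7.19, 7.34 and 7.19. The inhibitors Cdkn2d (8.27 ± 0.16) and Cdkn2c, which read 9.02, 8.96 and 9.02, and the cyclin Ccne2 (8.36 ± 0.32) were also among the dimmest. Another inhibitor, Cdkn1b, was brighter, with a mean of 10.66 (percentile 91.4) on the brighter of its 2 features. At 18 of the 32, pool 2 was the lowest, against 25.4% of all genes. Its median deviation was -0.051, or -0.106 when each array was centred on its median. The housekeeping list, with a median of 12.93, was similar: pool 2 was the lowest at 10 of 17, with a median deviation of -0.057. Low values of pool 2 were thus not particular to cell cycle genes. Over the brightest decile of all genes the median deviation of pool 2 was -0.016. Top2a, the topoisomerase of mitotic chromosomes, read 11.85, 11.36 and 11.82. It has a second feature with a mean of 4.12, so its level depends on the feature taken.

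Immediate early and stress genes all exceeded the line, 19 of 19 against 58.2% of all genes, with a median of 10.77. Jun, a subunit of the AP-1 factor, read 12.61, 12.73 and 12.52, and Nr4a1, an orphan nuclear receptor, read 12.57, 12.59 and 12.60. Fosb, another AP-1 subunit, read 11.31, 11.93 and 11.12, and Gadd45b, a stress-induced signalling protein, read 8.47, 9.38 and 8.99. At 13 of the 19, pool 2 was the highest, against 48.3% of all genes. Its median deviation was 0.15 (0.094 after median centring), against -0.13 in pool 3. Hsph1, a heat shock chaperone, was highest in pool 1, at 9.64, 9.53 and 9.04. Interferon-stimulated genes also all exceeded the line, 20 of 20 against 58.2% of all genes, with a median of 9.91, and ran the other way. At 16 of the 20, pool 2 was the lowest, against 25.4% of all genes, with a median deviation of -0.086, or -0.14 after median centring. Ifit1, an RNA-binding antiviral protein, read 8.46, 8.06 and 8.53, and Mx1, an antiviral GTPase and the dimmest of the list, read 7.54, 7.19 and 7.49.

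Genes of stroma, bone and endothelium had a median of 6.92, with 9 of 19 above the line (47.4%, against 58.2% of all genes). Emcn, an endothelial sialomucin, read 10.36, 10.30 and 10.59, and Pdgfrb, a receptor of perivascular cells, read 10.23, 10.63 and 10.12. The members below the line included Lepr, Adipoq and Nes. Lepr, the leptin receptor, read 5.22, 5.47 and 5.29. Adipoq, encoding adiponectin, read 5.99, 5.97 and 5.92, and Nes, encoding nestin, read 6.30, 6.24 and 6.09. Cxcl12, the niche chemokine, read 6.75, 6.77 and 6.93.

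**Figure D3:**
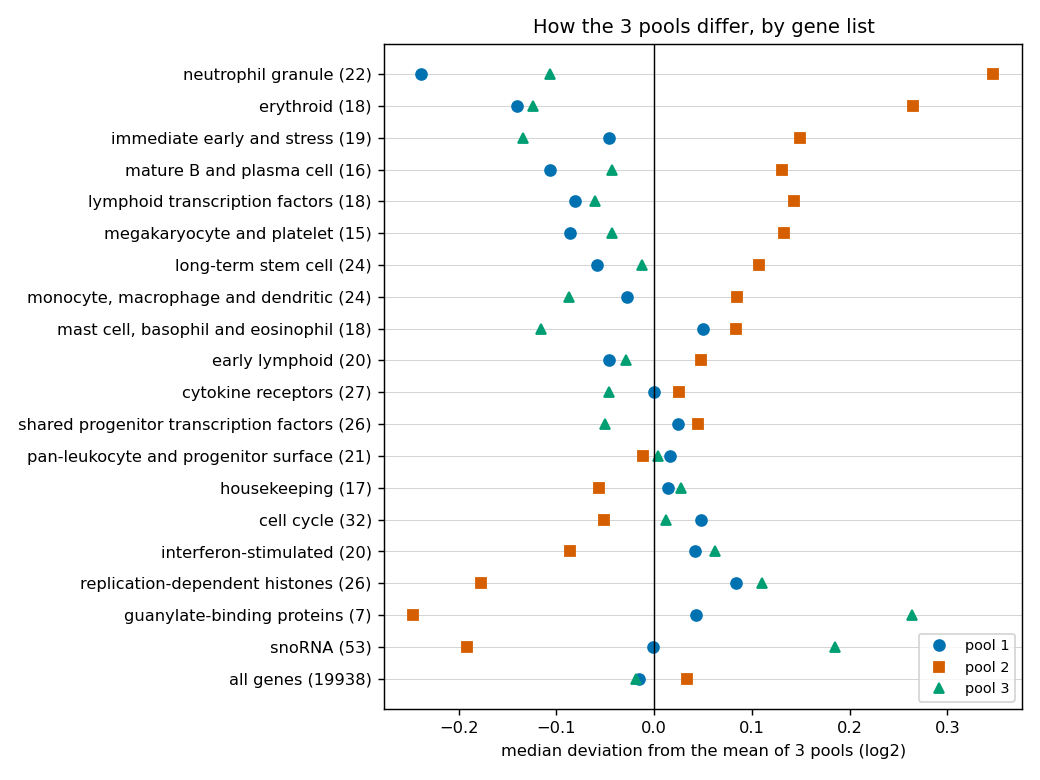
Median deviation of each pool from the mean of the 3 pools (log2, horizontal axis) over the genes of each list (rows, with the number of genes) and over all genes. Pool 2 lies right of 0 for neutrophil granule (0.35) and erythroid genes (0.26) and left of it for guanylate-binding proteins (-0.25) and snoRNA (-0.19).

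The largest spreads between pools belonged to antibody genes and small RNAs. The gene with the largest SD among those above the line, an immunoglobulin kappa variable segment, read 6.90, 11.43 and 6.95, 22.2-fold above the nearest pool in pool 2. Igha, the constant region of IgA, read 7.99, 10.17 and 7.87, and Jchain, the protein that joins IgA and IgM subunits, read 6.59, 8.88 and 7.08. Pool 2 thus stood 4.53-fold above the nearest pool at Igha and 3.50-fold above it at Jchain. The kappa segment and Jchain lay below the line in pools 1 and 3, so their means exceeded it only through pool 2. Igkv10-96, whose mean lay below the line, read 5.02, 10.26 and 5.08. Its SD of 3.01 was larger, but the line kept it out of this ranking. Igkv19-93 ran differently, at 9.11, 7.50 and 7.55, 2.95-fold above the nearest pool in pool 1. The 12 immunoglobulin segments, constant regions and J chain that were measured were a set put together after these values were seen. Pool 2 was the highest at 10 of them (83.3%, against 48.3% of all genes). Of the 16 mature B and plasma cell genes, pool 2 was the highest at 13, against 48.3% of all genes. Its median deviation at them was 0.13, or 0.076 after median centring. Other plasma cell genes differed less between pools: Sdc1, encoding CD138, read 9.70, 9.75 and 9.86, Xbp1 read 11.27, 11.28 and 11.08, and Tnfrsf17, encoding BCMA, read 6.39, 6.62 and 6.51, below the line. The part of other cells in these values was not tested.

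Small nucleolar RNAs, which guide chemical modification of ribosomal RNA, were highest in pool 3. Snora73a read 10.81, 9.75 and 12.16, Snora73b read 10.58, 9.40 and 11.66 and Snora16a read 9.51, 9.30 and 11.25. At each of them pool 3 was the highest and pool 2 the lowest. Rmrp, the RNA of the RNase MRP complex, read 11.85, 11.10 and 12.86, and Rny3, a Y RNA, read 11.65, 11.30 and 12.54. The 53 snoRNA genes measured were a set also chosen after seeing the values. Pool 3 was the highest at 33 of them and pool 2 the lowest at 43, against 24.8% and 25.4% of all genes. Their median deviations in pools 3 and 2 were 0.19 and -0.19. A set of 61 cytoplasmic ribosomal protein genes was likewise chosen after seeing the values, by symbol, and includes the pseudogene Rps4l. Pool 3 was the highest at 53 of the 61, against 24.8% of all genes. Its median deviation was 0.11, or 0.066 after quantile normalization.

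Pool 2 was also low at genes for guanylate-binding proteins and histones, both sets chosen after seeing the values. Gbp4, an interferon-inducible GTPase, read 9.07, 7.91 and 8.98, and its relatives Gbp11 and Gbp8 read 9.35, 8.38 and 9.33 and 8.26, 7.69 and 8.70. Pool 2 was the lowest at 6 of the 7 Gbp genes and at 23 of 26 replication-dependent histone genes, against 25.4% of all genes. At the histone genes its median deviation was -0.18. Histone mRNAs of this kind are made in S phase and mostly lack a poly(A) tail. Pool 1 differed from the other pools at few genes. F13a1, encoding a coagulation factor subunit made by monocytes, read 10.49, 9.80 and 9.52, and Ly86, a partner of a Toll-like receptor relative, read 10.86, 10.19 and 10.10, both highest in pool 1. Met, the receptor for hepatocyte growth factor, read 8.01, 7.19 and 7.17, above the line in pool 1 only. Mgst1, a glutathione transferase, read 7.75, 8.50 and 8.60, and Ltb, encoding lymphotoxin beta, read 8.92, 9.85 and 9.59, both lowest in pool 1.

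**Figure D4:**
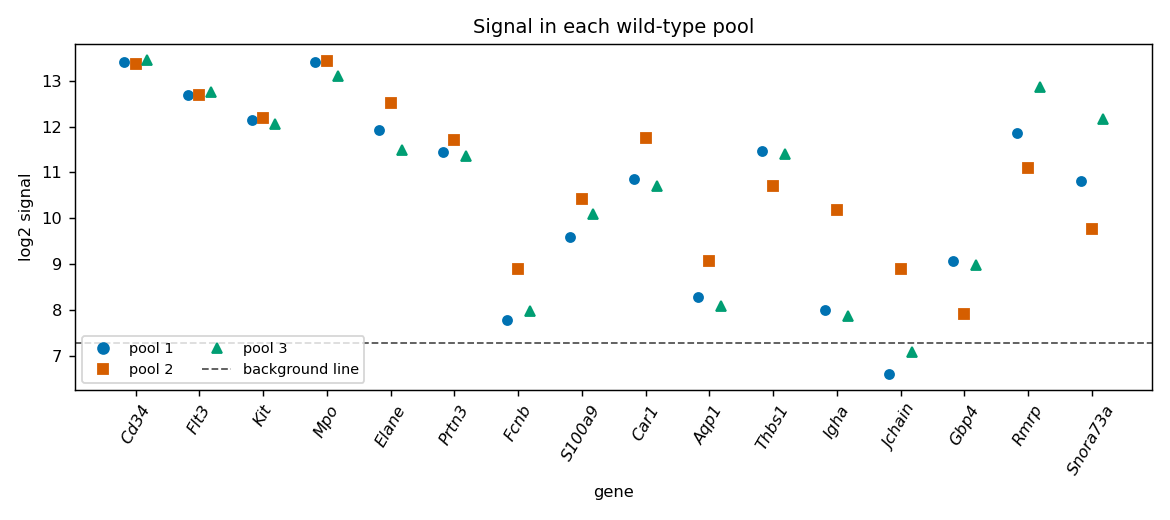
Log2 signal (vertical axis) in pool 1 (circles), pool 2 (squares) and pool 3 (triangles) for 16 genes, with the background line at 7.28 dashed. The 3 pools coincide at Cd34, Flt3 and Kit, pool 2 lies above the others at Elane, Fcnb, Car1, Igha and Jchain and below them at Thbs1 and Gbp4, and pool 3 lies above them at Rmrp and Snora73a.

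Differences of this size were rare. Among genes above the line, 122 (1.05%) differed at least 1.5-fold between pools 1 and 2, 37 (0.319%) between pools 1 and 3, and 133 (1.15%) between pools 2 and 3. A 2-fold difference was reached by 8, 6 and 21 genes. Of genes above the line and more than 0.5 from the nearest other pool, 32 were higher and 62 lower in pool 2, 8 higher and 6 lower in pool 1, and 24 higher and 4 lower in pool 3. The line was set on the mean, so a gene such as Jchain entered these counts only through the pool where it was high. Among blood genes the widest SDs were at Jchain (1.21), Fcnb (0.59), Car1 (0.58), Elane (0.52), Aqp1 (0.52) and Ms4a3 (0.51). Ctnnal1, Ccnb2, Cdkn1b, Insr, Nr4a1, Satb1 and Spi1 were among the steadiest, with an SD of 0.020 at Spi1.

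Of 297 microRNA genes with a feature, 88 exceeded the line (29.6%, against 58.2% of all genes). MicroRNAs are short RNAs that pair with target mRNAs through their seed, bases 2 to 8. The labels do not say which form of the RNA these features bind, so the values are those of the gene's feature. From these, 5 genes known from blood cells were picked for display after the values were seen. Mir142, a microRNA gene of blood cells, read 9.36, 9.07 and 8.96. Mir23a and Mir27a, neighbours on chromosome 8, read 8.66, 8.94 and 8.15 and 8.85, 9.26 and 8.51, both highest in pool 2 and lowest in pool 3. Mir155 (7.93, 7.97 and 8.05) and Mir150 (7.64, 7.57 and 7.73), both known from lymphocytes, lay closer to the line. The mature RefSeq sequences (GRCm38.p6) of the 3 of these genes whose features lay farthest above the line are shown with the seed in capitals, both arms for Mir142 and the 3p arm only for Mir23a and Mir27a.
mmu-miR-142a-3p: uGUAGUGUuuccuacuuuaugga
mmu-miR-142a-5p: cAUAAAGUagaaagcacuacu
mmu-miR-23a-3p: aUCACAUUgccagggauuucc
mmu-miR-27a-3p: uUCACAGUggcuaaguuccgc
The 4 seeds differ from each other.

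Genes measured by several features numbered 999, with a median gap of 0.787 between features, and 12 of them are blood genes. The choice of feature moved the level most at Top2a (11.68 and 4.12), Mitf (7.85 and 3.50), Cdkn1b (10.66 and 8.18), Mecom (9.14 and 7.12), Socs3 (8.58 and 6.99) and Ifitm1 (12.26 and 11.40). Mitf, a mast cell and melanocyte factor, is on either side of the line depending on the feature.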

How the data were processed

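Total RNA from sorted bone marrow progenitors (100 ng per array) was hybridised to Affymetrix MoGene-1-0-st-v1 arrays. The authors deposited log2 expression values normalized by RMA, per the series text, and Partek 6.0 stands in the submitters' processing notes. That the scale is log2 was read from the value range, 2.93 to 14.44. RMA equalises array distributions, so differences in total RNA per cell are not measurable. Neither the labels nor the file header give RMA settings, scan dates or a genome build.

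Symbols came from the platform's probe table, updated through the GRCm38.p6 gene table: 21698 features matched and 91 kept the platform's symbol. Features with several symbols (1621) or none (12147) were left out. Of 463 listed genes, 43 lay on no single-symbol feature and were not analysed here. The members and lists were chosen with earlier results of these data known.

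Named were the sort markers, Lxn, Xist and Y-linked genes, the 15 brightest and dimmest blood genes, the highest and lowest 3 or 4 of each list, the 12 brightest genes, the 12 most variable of all and of blood genes, 6 genes per pool with the largest gap, and the 6 blood genes whose features differ most. Some of those are summarised, and genes named beyond the rule were picked after their values were seen. No p-values are given, since only 1 group is described and no groups are compared. Calculations used Python 3.11.15 with pandas 2.3.3 and numpy 2.4.6, with figures in matplotlib 3.10.9. The scripts were tested on simulated data. Alternatives were other background lines, the mean of a gene's features, quantile normalization, median centring, genes above the line only and each pool left out.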

Additional observations from a re-analysis of the deposited data

How the results depend on the processing

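The count of genes above the background line was 9384 with the line at the 99th percentile of the receptor genes, 17441 at their median and 9571 at the highest gene of other tissues (added after seeing the data), and 11433 to 11761 with 1 pool left out. List counts that moved by over 1.5 times did so with the line. At the 99th percentile they were 7 lymphoid factors, 7 megakaryocyte, 10 early lymphoid, 3 T and NK cell, 5 B and plasma cell, 4 stromal and 0 other-tissue genes. At the receptor median they were 24 monocyte, 18 erythroid, 17 T and NK cell, 15 B and plasma cell, 18 stromal and 22 other-tissue genes. At the highest other-tissue gene they were 11 early lymphoid, 4 T and NK cell, 5 B and plasma cell, 4 stromal and 0 other-tissue genes.

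The median SD was 0.0709 without pool 2 and up to 0.0911 without pool 3. These are SDs over 2 pools, whose median tends to be lower than over 3 at equal spread. They are therefore not set against the 3-pool median of 0.102. The deviations of pool 2 at granule, erythroid, immediate early, interferon, snoRNA, guanylate-binding protein, histone and antibody genes kept their sign under quantile normalization and median centring. Of 261 deviations recomputed, 31 changed sign. By size, 31 moved by more than the spread between pools, and 20 of these changed sign. Under median centring pool 1 moved to 0.043 for sort markers, 0.054 for general surface genes, 0.038 for cytokine receptors, 0.0058 for stroma and 0.0023 for other tissues. Pool 2 moved to -0.085 for sort markers, -0.066 for surface genes, -0.0094 for shared factors, -0.0066 for early lymphoid genes, -0.029 for cytokine receptors, -0.106 for cell cycle genes, -0.026 for stroma, -0.111 for housekeeping genes, -0.113 for Xist and -0.048 for other tissues, and pool 3 moved to 0.020 for surface genes. Under quantile normalization pool 1 moved to -0.0037 for surface genes and -0.0050 for other tissues, pool 2 to 0.036 for sort markers, 0.014 for surface genes, -0.016 for stroma, 0.0065 for housekeeping genes, 0.015 for Xist and -0.041 for other tissues, and pool 3 to -0.041 for sort markers, -0.028 for surface genes and -0.029 for Xist. With members above the line only, pool 3 moved to 0.031 for stroma, and for other tissues pools 1, 2 and 3 moved to -0.0020, -0.036 and 0.064. The cause was not tested. Taking the mean of a gene's features moved the level of Baiap2l1 to 10.76, the level of Cd47 to 12.51, the level of Rpl10 to 13.67 and the level of Rplp1 to 13.10.

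No paired analysis was possible because only the wild-type group is used and no test is made. Values near the line are limited by signal over background.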
